A study of Mus musculus with 8 samples.

Results

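The lung expression of 4 CC chemokines that act on dendritic cells and lymphocytes, Ccl20, Ccl22, Ccl17 and Ccl19, and of their receptors Ccr6, Ccr4 and Ccr7 was compared between LPS-treated mice with and without tangeretin. These 7 genes were selected by symbol from the 24584 genes of the tables, and all 7 were found in both tables. The selection was made with results of the same comparison known, in which Ccl20 and Ccl22 were lower with tangeretin, so their group differences are given as a description and not as a test. Male ICR mice aged 6 to 8 weeks, with the genotype given as "widetype" in the labels, were injected in the peritoneum with 5 mg/kg of LPS from Escherichia coli, and lungs were taken 12 h later. The LPS group of 4 mice had no further treatment, and the LPS + Tan group of 4 mice had tangeretin, a citrus flavonoid, injected by the same route 30 min ahead of LPS, at 50 mg/kg. No group without LPS and no group given tangeretin alone was analysed here, so neither the response to LPS nor the effect of tangeretin on uninjured lung can be read from these data. RNA was taken from unsorted lung tissue, in which fewer cells of a type and less RNA per cell cannot be told apart.

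CC chemokines are small secreted proteins, named for a pair of adjacent cysteines, that attract cells carrying matching G protein-coupled receptors. CCL20, produced by epithelium and by activated immune cells, is the chemokine ligand of CCR6, which is carried by immature dendritic cells, B cells and type 17 lymphocytes. CCL22 and CCL17, made mainly by dendritic cells and macrophages, share CCR4, a receptor of regulatory and type 2 T cells. CCL19, made by lymphoid stromal cells and mature dendritic cells, shares CCR7 with CCL21, and CCR7 brings mature dendritic cells and naive T cells to lymphoid tissue.

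Between 38895654 and 39931970 reads were counted on genes in each lung, so depth differed little between samples. Counts relative to the library total (CPM) are given on totals scaled by the TMM method of edgeR, and FPKM values of the authors are used where different genes are compared, since these are per gene length. The lung identity genes, led by Scgb1a1 of airway club cells, summed to 20405 to 27540 CPM in the LPS group and to 18902 to 28491 CPM in the LPS + Tan group, and 0 of these 8 genes passed an unadjusted p of 0.05. Of the 15706 genes tested by edgeR's quasi-likelihood test, 0 (0%) passed an adjusted p of 0.05, while 23 of them did by edgeR's likelihood ratio test. DESeq2, run on all 24584 genes with its own filter, passed 35. At an unadjusted p of 0.05 edgeR's quasi-likelihood test gave 451 higher genes (2.87%) and 353 lower genes (2.25%) with tangeretin. The study also asked for a change of at least 1 on the log2 scale in either direction, and with that added 55 genes (0.35%) were higher and 47 (0.299%) were lower.

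The RefSeq annotation of GRCm38.p6 places Ccl20 on chromosome 1 (83116766 to 83119167), Ccr6 on chromosome 17 (8236041 to 8258519), Ccr4 on chromosome 9 (114490316 to 114505476), Ccl19 on chromosome 4 (42754525 to 42756365) and Ccr7 on chromosome 11 (99144199 to 99155077). Ccl22 (94745684 to 94751388) and Ccl17 (94809380 to 94812038) are neighbours on chromosome 8, separated by 57991 bases that hold Cx3cl1, which encodes the chemokine fractalkine, Gm51543 and the pseudogene Gnb1-ps3. The sequences before the transcription start sites of the ligands Ccl20, Ccl22 and Ccl17 and of the receptor Ccr6 are shown because Ccl20 and Ccl22 were the members with the largest group differences, Ccl17 is the neighbour of Ccl22, and Ccr6 is the receptor of Ccl20. They come from RefSeq promoters of GRCm38.p6 on the plus strand, at chr1:83116516-83116765 for Ccl20, chr8:94745434-94745589 for Ccl22, chr8:94810203-94810452 for Ccl17 and chr17:8242276-8242525 for the second of the 2 listed starts of Ccr6. The Ccl22 window is short because exon bases of a longer GENCODE transcript were left out, and the Ccl17 and Ccr6 windows lie inside the spans given by RefSeq for these genes. Capitals mark matches to the NF-κB consensus in Ccl20 and Ccr6 and to the STAT6 motif in Ccl17.
Ccl20: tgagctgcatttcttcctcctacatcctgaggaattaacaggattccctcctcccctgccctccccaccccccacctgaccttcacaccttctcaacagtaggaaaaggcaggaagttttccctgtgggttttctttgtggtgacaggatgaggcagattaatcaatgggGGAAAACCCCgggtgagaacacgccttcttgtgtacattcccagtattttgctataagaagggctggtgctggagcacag
Ccl22: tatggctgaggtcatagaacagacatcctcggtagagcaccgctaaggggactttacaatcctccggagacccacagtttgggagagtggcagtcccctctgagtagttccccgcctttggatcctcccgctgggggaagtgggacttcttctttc
Ccl17: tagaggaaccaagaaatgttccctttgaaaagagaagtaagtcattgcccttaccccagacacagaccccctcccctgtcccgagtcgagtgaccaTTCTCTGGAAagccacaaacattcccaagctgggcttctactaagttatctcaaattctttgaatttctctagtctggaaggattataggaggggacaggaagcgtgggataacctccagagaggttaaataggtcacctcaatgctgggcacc
Ccr6: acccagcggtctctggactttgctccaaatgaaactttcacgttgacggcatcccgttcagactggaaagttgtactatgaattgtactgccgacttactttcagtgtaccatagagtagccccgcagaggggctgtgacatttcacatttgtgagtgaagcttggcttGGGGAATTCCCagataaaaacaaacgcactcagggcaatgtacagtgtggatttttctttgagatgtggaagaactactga

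Both strands of the 250 bases before each listed start were searched for the NF-κB consensus, the AP-1 motif TGANTCA and the STAT6 motif. Ccl20 had 1 NF-κB match, on the strand opposite to the gene, 80 to 71 bases before its start. The second start of Ccr6 had 2 overlapping NF-κB matches, the first start had none, and Ccl17 had 1 STAT6 match 154 to 145 bases before its start. Ccr4 had 1 AP-1 match, and Ccl22 and Ccl19 had 0 matches to these 3 motifs. Over 32851 promoters of the same length, 7.25% held the NF-κB consensus, 6.75% the AP-1 motif and 5.85% the STAT6 motif, and the matches are given as a description of the letters only.

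Per gene length, Ccl22 and Ccr7 had the highest levels and the receptors Ccr6 and Ccr4 the lowest. In raw counts Ccl19, a short gene, was about as thinly covered as Ccr6, with 50 to 172 counts per lung against 52 to 96. In median FPKM over the 8 lungs the order was Ccl22 with 23.0, Ccr7 with 12.9, Ccl17 with 8.36, Ccl20 with 5.93, Ccl19 with 3.79, Ccr6 with 0.402 and Ccr4 with 0.0250. The ranges of neighbours in this order overlapped for the first 5 genes, but not between Ccl19 and Ccr6 or between Ccr6 and Ccr4, where the order held in 8 of 8 lungs. Ccl22 exceeded Ccr7 in 7 of 8 lungs, all except LPS + Tan replicate 2, and Ccr7 exceeded Ccl17 in 7 of 8. The place of Ccl20 depended on the group, since it was above Ccl19 in 4 of 4 LPS lungs and in 1 of 4 LPS + Tan lungs.

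**Figure D1:**
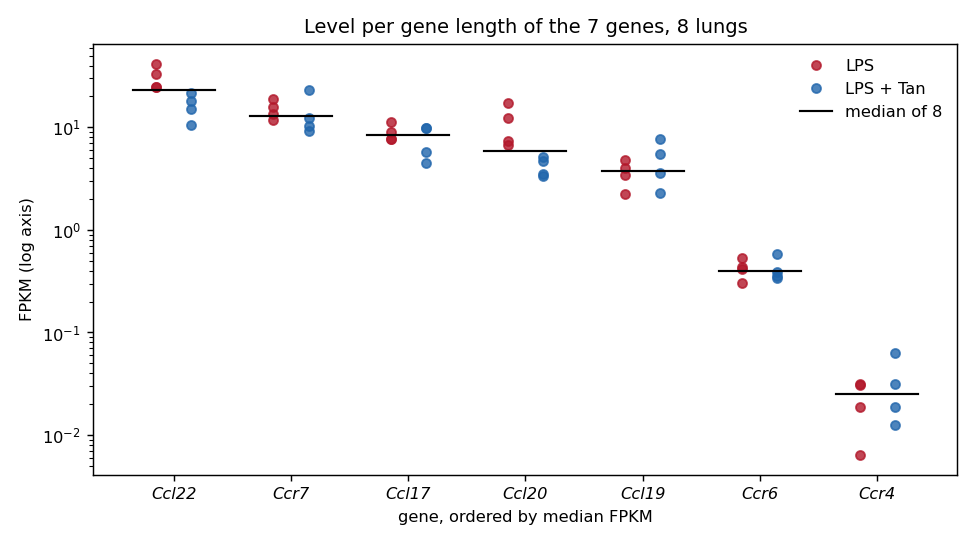
FPKM (log axis) of the 7 genes in the 4 LPS lungs (red) and the 4 LPS + Tan lungs (blue), ordered by the median of all 8 (black line). Ccl22 leads with a median of 23.0 FPKM, and Ccr6 and Ccr4 lie apart from the others at 0.402 and 0.0250 FPKM.

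Ccl20, the ligand of CCR6, was lower in every LPS + Tan lung than in any LPS lung. Its level was 10.1, 13.7, 6.17 and 5.44 CPM in LPS replicates 1 to 4. In LPS + Tan replicates 1 to 4 it was 2.61, 2.82, 3.60 and 4.24 CPM. The LPS group was spread more widely, with replicates 1 and 2 above replicates 3 and 4, while the LPS + Tan lungs lay close together. The group means were 8.85 ± 3.81 CPM (SD, n = 4) for LPS and 3.32 ± 0.747 CPM (SD, n = 4) for LPS + Tan, a log2 fold change of -1.42 (standard error 0.30) in the edgeR fit, or 2.67-fold lower. This difference exceeded the SD of either group, and it was also present on sample totals without TMM scaling. Among the 8 omissions of a lung it was smallest without LPS replicate 2, at -1.13.

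Ccr6, the receptor of CCL20, had nearly equal group means. It was 1.87, 2.23, 1.36 and 1.79 CPM in LPS replicates 1 to 4. It was 1.48, 1.63, 2.33 and 1.48 CPM in LPS + Tan replicates 1 to 4. The groups overlapped almost fully, with a log2 fold change of -0.07 (standard error 0.24), whose sign turned when LPS replicate 2, LPS + Tan replicate 1 or LPS + Tan replicate 4 was left out, the highest value being 0.04. Ccr6 rested on 52 to 96 counts per lung, and its sum over the 8 lungs was below that of each ligand. The ratio of Ccl20 to Ccr6 in FPKM therefore ran from 16.1 to 32.4 in the LPS lungs and from 8.16 to 15.1 in the LPS + Tan lungs. This ratio rests on the Ccl20 values that chose that gene and is not separate evidence.

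Ccl22, one of the ligands of CCR4, was also lower in every LPS + Tan lung. It was 45.6, 75.3, 62.8 and 45.1 CPM in LPS replicates 1 to 4. It was 31.9, 18.9, 26.2 and 39.9 CPM in LPS + Tan replicates 1 to 4. The nearest lungs of the groups were LPS replicate 4 and LPS + Tan replicate 4, and LPS + Tan replicate 2 was the lowest of all. The means were 57.2 ± 14.6 CPM (SD, n = 4) for LPS and 29.2 ± 8.87 CPM (SD, n = 4) for LPS + Tan, a log2 fold change of -0.97 (standard error 0.23), or 1.96-fold lower. The difference exceeded the SD of either group and lay between -1.16 and -0.81 when single lungs were left out.

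**Figure D2:**
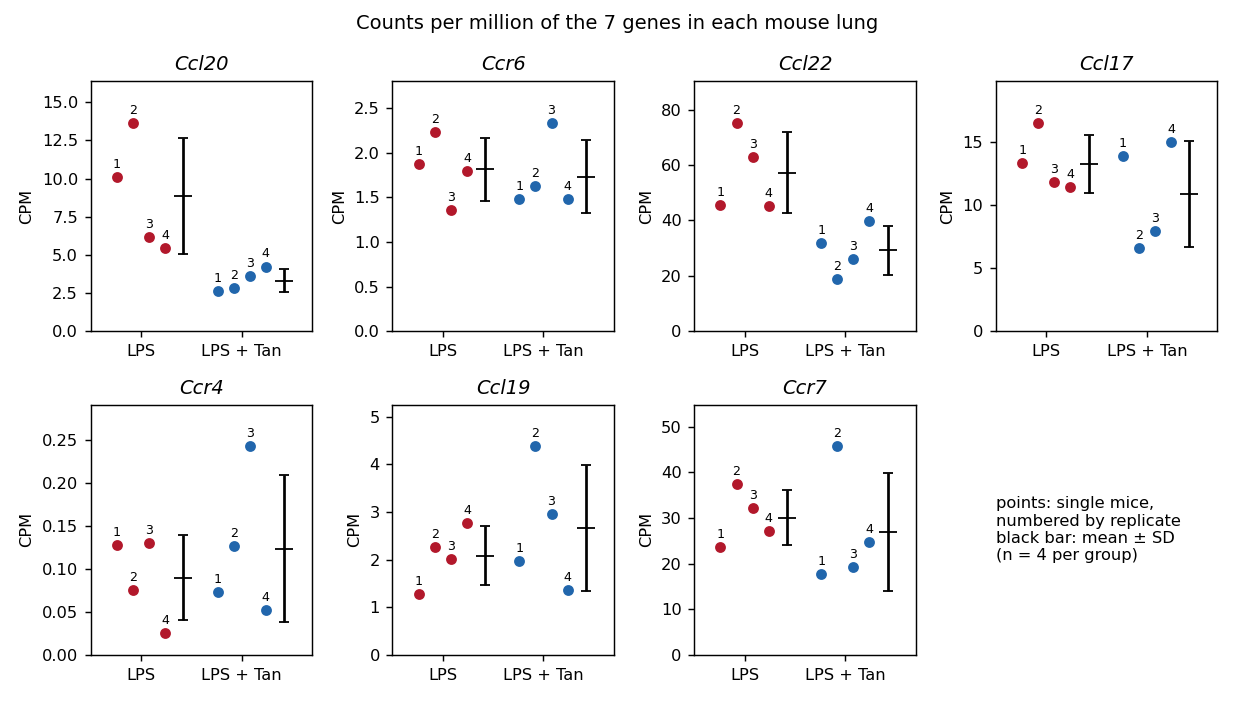
CPM of each gene in each mouse lung (points numbered by replicate), with the mean and SD of 4 mice as black bars and every axis starting at 0. The groups are separate for Ccl20 and Ccl22 and overlap for the other 5 genes, and LPS + Tan replicate 2 is the highest lung for Ccl19 and Ccr7 and the lowest for Ccl22 and Ccl17.

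Ccl17, the other ligand of CCR4, overlapped between the groups. It was 13.4, 16.6, 11.9 and 11.4 CPM in LPS replicates 1 to 4. It was 13.9, 6.61, 7.95 and 15 CPM in LPS + Tan replicates 1 to 4. Thus LPS + Tan replicates 2 and 3 were below all LPS lungs, whereas replicates 1 and 4 were within the LPS range. The log2 fold change was -0.29 (standard error 0.26). It was -0.11 without LPS + Tan replicate 2 and -0.49 without LPS + Tan replicate 4.

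Ccl22 and Ccl17 ranked the lungs alike at their ends, with LPS replicate 2 highest for both in the LPS group and LPS + Tan replicate 2 lowest for both overall. Their ratio within a lung nevertheless separated the groups. Ccl22 divided by Ccl17 in FPKM was 2.77, 3.68, 4.28 and 3.20 in LPS replicates 1 to 4. It was 1.85, 2.32, 2.67 and 2.16 in LPS + Tan replicates 1 to 4. Every LPS + Tan ratio was below every LPS ratio, the nearest being 2.67 and 2.77, so Ccl22 was lower relative to Ccl17 as well as in its own level. The ratio rests on the Ccl22 values that chose this gene and is not separate evidence.

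**Figure D3:**
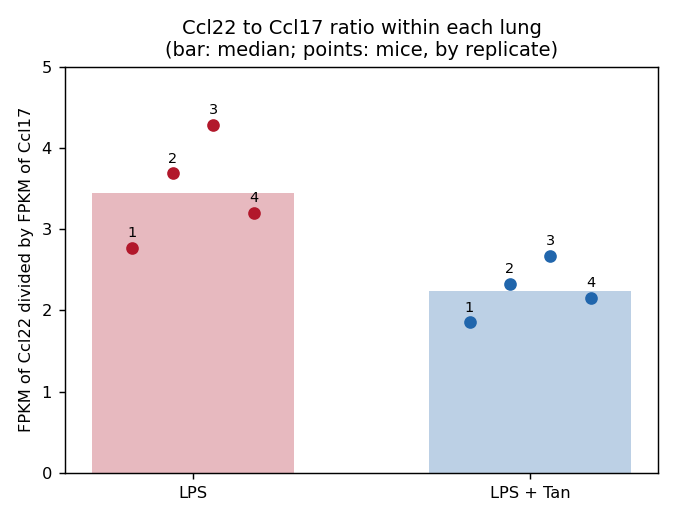
FPKM of Ccl22 divided by FPKM of Ccl17 within each lung (points, numbered by replicate), with the group median as a bar from 0. The ratios run from 2.77 to 4.28 in the LPS group and from 1.85 to 2.67 in the LPS + Tan group.

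Ccr4, the receptor of both, was close to the limit of detection and was removed by the count filter. Its counts were 5, 3, 5 and 1 in LPS replicates 1 to 4 and 3, 5, 10 and 2 in LPS + Tan replicates 1 to 4. The sums were 14 counts in the LPS group and 20 in the LPS + Tan group, so a group difference was not detectable at this depth. Ccr8, another receptor of regulatory and type 2 T cells, was as scarce, with 1 to 6 counts per lung.

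Ccl19, one of the ligands of CCR7, was the only tested member with a higher mean in the LPS + Tan group. It was 1.28, 2.25, 2.01 and 2.77 CPM in LPS replicates 1 to 4. It was 1.97, 4.37, 2.97 and 1.35 CPM in LPS + Tan replicates 1 to 4. The groups overlapped, since LPS + Tan replicate 4 was near the lowest LPS lung and replicates 2 and 3 were above all LPS lungs. The log2 fold change was 0.36 (standard error 0.37) and rested on single lungs. It became 0.01 without LPS + Tan replicate 2 and 0.18 without LPS replicate 1, but 0.58 without LPS + Tan replicate 4. Copies of Ccl19 are known in the mouse genome, and reads could have been split between them by the counting of the authors.

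Ccr7 was highest in LPS + Tan replicate 2, as Ccl19 was. It was 23.6, 37.4, 32.2 and 27.1 CPM in LPS replicates 1 to 4. It was 17.8, 45.7, 19.3 and 24.8 CPM in LPS + Tan replicates 1 to 4. All LPS + Tan lungs except replicate 2 were below 3 of the 4 LPS lungs. The log2 fold change was -0.16 (standard error 0.28), and it rested on single lungs. It was -0.54 without LPS + Tan replicate 2, but -0.01 without LPS + Tan replicate 1, -0.03 without LPS + Tan replicate 3 and -0.04 without LPS replicate 2. In LPS + Tan replicate 2 the T cell markers summed to 77.3 CPM. They summed to 44.2 to 63.1 CPM in the other LPS + Tan lungs and to 50.5 to 58.1 CPM in the LPS lungs. The part of T cells in the Ccr7 level was not tested.

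Ccl21a, which encodes the other CCR7 ligand, was far more abundant than Ccl19 but did not differ beyond the spread between mice. It was 32.8 to 50.9 CPM in the LPS group and 20.5 to 69.0 CPM in the LPS + Tan group, with a log2 fold change of -0.04 (standard error 0.31). In FPKM it exceeded Ccl19 by 3.06 to 33.4 times, with the smallest ratio in LPS + Tan replicate 2. Near-identical Ccl21 genes exist, so this level is uncertain. Of the atypical receptors, which take up chemokines without attracting cells, Ackr2, which binds CCL22 and CCL17, averaged 62.7 ± 12.3 CPM with LPS and 53.4 ± 9.56 CPM with LPS + Tan (SD, n = 4 each). Ackr4, which binds CCL19 and CCL21, averaged 0.259 ± 0.203 CPM and 0.440 ± 0.125 CPM (SD, n = 4 each). The log2 fold changes were -0.23 (standard error 0.16) for Ackr2 and 0.76 (standard error 0.52) for Ackr4, the latter on 4 to 22 counts per lung.

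Of the 7 members, 6 passed the count filter, and 5 of these had a negative log2 fold change. Their median was -0.23, beside 0.01 over all tested genes. Ccl20 and Ccl22 were the 2 members past an unadjusted p of 0.05, where 2.25% of all tested genes were lower at that threshold. Ccl20 was the 1 member past the thresholds of the study, where 0.299% of tested genes were lower. Ccl22 passed them too without LPS replicate 1 or 4 or LPS + Tan replicate 1 or 4, where 38 to 102 genes in all were lower. For 2 of the 7 members the groups were fully separate, both lower with tangeretin. Over all tested genes 1.15% were separate and lower, 1.58% separate and higher, and 2.73% separate in either direction. These members were chosen for such values, so nothing is read from the counts. After adjustment over 15706 genes, 0 members passed by edgeR's quasi-likelihood test, whereas DESeq2 and the likelihood ratio test of edgeR passed both Ccl20 and Ccl22.

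The remaining CC ligands were compared next. Of 16 listed, 15 were tested, 13 had a negative log2 fold change (48.2% of all tested genes did) and the median was -0.19. At an adjusted p of 0.05 by edgeR 0 of the 15 passed. Ccl8, which attracts monocytes and T cells, was the 1 gene past an unadjusted p of 0.05, where 2.25% of all tested genes were lower. That count was 2 without LPS replicate 2, 3 or 4, 3 without LPS + Tan replicate 3 or 4, 2 without the count filter or with the replicate block, and 0 with limma on FPKM of all genes. Ccl8 was 15.3, 3.52, 11.9 and 13.4 CPM in LPS replicates 1 to 4 and 3.35, 2.29, 5.27 and 6.89 CPM in LPS + Tan replicates 1 to 4, with LPS replicate 2 inside the LPS + Tan range. Its log2 fold change was -1.31 (standard error 0.44) (edgeR adjusted p = 0.924). Of 12 further CC and atypical receptors, 8 were tested, 4 in each direction, with a median of 0.01, and 0 passed an unadjusted p of 0.05.

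Known inducers of Ccl20 were compared in the same way. Of 19 listed genes (the IL-17 family, IL-22, IL-23, IL-1, TNF, their receptors, Toll-like receptors and NF-κB signalling), 17 were tested, 13 were negative (48.2% of all tested genes were), several of them near 0, such as the NF-κB subunit gene Rela at -0.02 (standard error 0.09), and the median was -0.16. The 2 past an unadjusted p of 0.05 were Il17a and Il1a (2.25% of all tested genes were lower at that threshold), and 0 passed the adjusted test by edgeR. The count was 1 in 4 of the 8 omissions of a lung, namely without LPS replicate 1 or 4 or LPS + Tan replicate 1 or 3, and 3 without LPS + Tan replicate 2. Il22, another type 17 cytokine, had a log2 fold change of -1.38 (standard error 0.67) without passing, and Il17f one of -0.21 (standard error 0.72). Il1b and Tnf, cytokines of the early LPS response, had positive values of 0.13 (standard error 0.23) and 0.09 (standard error 0.20). Il17a, a cytokine of type 17 lymphocytes, had 22, 23, 15 and 40 counts in LPS replicates 1 to 4 and 0, 11, 4 and 18 counts in LPS + Tan replicates 1 to 4, so few reads stood behind it and the groups overlapped. Its log2 fold change was -1.61 (standard error 0.72) (edgeR adjusted p = 0.924). Il1a, which signals through the IL-1 receptor, was 14.1 to 20.4 CPM in the LPS group and 11.3 to 13.1 CPM in the LPS + Tan group, without overlap, and had a log2 fold change of -0.49 (standard error 0.13) (edgeR adjusted p = 0.850).

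Inducers of Ccl17 and Ccl22 showed small differences. Of 16 listed genes 14 were tested, 9 were negative, the median was -0.12, and 0 passed the adjusted test by edgeR. Il4 and Il13, the type 2 cytokines, had at most 4 counts and 1 count in any lung. Il13ra1, a receptor chain for IL-13, had a log2 fold change of -0.28 (standard error 0.11), and Klf4, a transcription factor of myeloid cells, one of 0.36 (standard error 0.15). Both were past an unadjusted p of 0.05, with an edgeR adjusted p of 0.924 each, beside 5.12% of all tested genes in either direction, and both overlapped between the groups. The higher call was lost in 6 of the 8 omissions of a lung, all except LPS replicate 4 and LPS + Tan replicate 2. The lower call was lost without LPS replicate 3 or LPS + Tan replicate 1, 3 or 4, and 4 genes were lower without LPS + Tan replicate 2. In the list of lymphoid tissue genes, led by the B cell chemokine Cxcl13, 8 of 11 tested genes were negative, with a median of -0.04, and 0 passed an unadjusted p of 0.05.

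Markers of the cells that make or answer these chemokines were set beside them. Of 18 markers of mature dendritic cells, which carry Ccr7 and make Ccl22 and Ccl17, 16 were tested. Of these, 15 had a negative log2 fold change (48.2% of all tested genes did), with a median of -0.20. Several of the 15 were near 0, such as Traf1 at -0.004 (standard error 0.10). Cacnb3 was the 1 positive marker, at 0.14 (standard error 0.10). The 4 past an unadjusted p of 0.05 (5.12% of all tested genes in either direction) were all lower with tangeretin, and 0 passed the adjusted test by edgeR. Pdcd1lg2, which encodes PD-L2, was 1.25 to 1.93 CPM in the LPS group and 0.728 to 0.948 CPM in the LPS + Tan group, without overlap, a log2 fold change of -0.86 (standard error 0.23) (edgeR adjusted p = 0.895). Fscn1, the actin bundler fascin of mature dendritic cells, was 91.4 to 119 CPM and 71.0 to 90.6 CPM, a log2 fold change of -0.33 (standard error 0.11) (edgeR adjusted p = 0.924). The co-stimulatory ligands Cd80 and Cd86 had log2 fold changes of -0.37 and -0.34, each with a standard error of 0.13 (edgeR adjusted p = 0.924). Without LPS replicate 3 this count was 2 instead of 4.

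**Figure D4:**
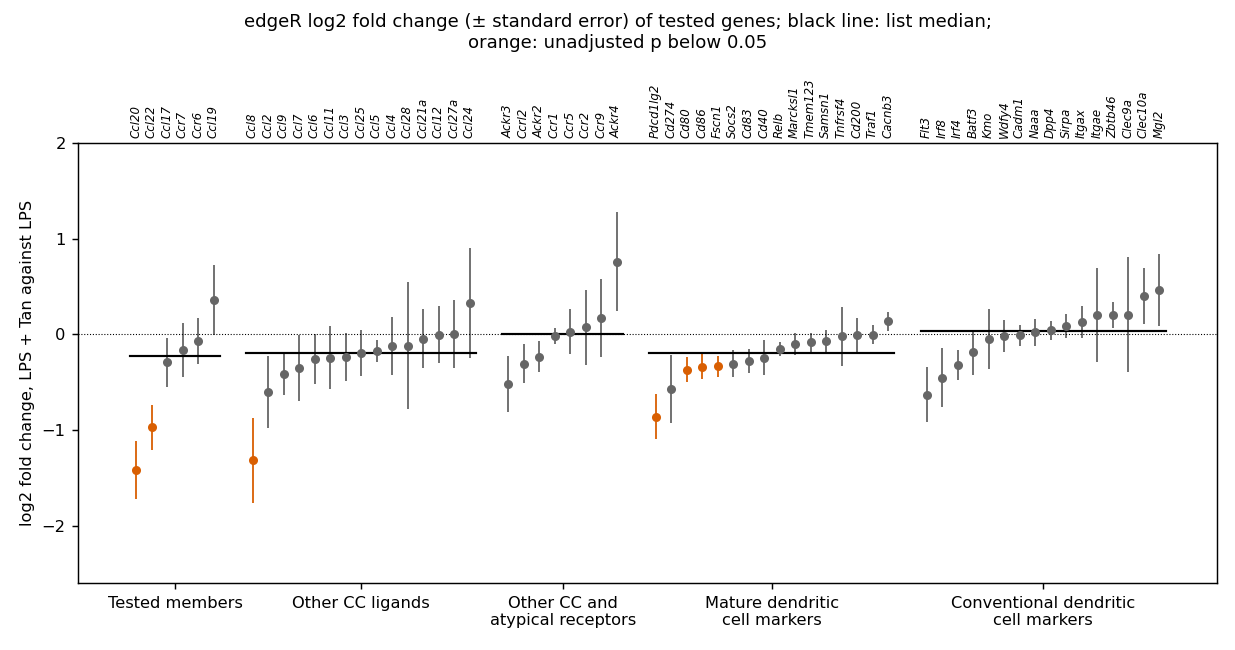
Log2 fold change of LPS + Tan against LPS with its standard error (edgeR) for the tested members, the remaining CC ligands and receptors and the dendritic cell marker lists, with list medians as black lines and genes past an unadjusted p of 0.05 in orange. The 16 mature dendritic cell markers have a median of -0.20 and the 16 conventional dendritic cell markers one of 0.03.

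The summed mature dendritic cell markers ran from 1823 to 1996 CPM in the LPS group and from 1378 to 2113 CPM in the LPS + Tan group, so the sums overlapped through LPS + Tan replicate 4. Cd274, which encodes PD-L1 and is also made by endothelium and many other cells, held the largest share of this sum, and Marcksl1 had the highest FPKM of the list. The defining genes Il4i1 and Il12b had at most 14 and 13 counts in any lung. The part of mature dendritic cells in the Ccl22 level was not tested. Of the markers of conventional dendritic cells 7 of 16 tested genes were negative, with a median of 0.03 and 0 past an unadjusted p of 0.05, and the difference from the mature markers was not tested. The count of lower genes was 1 or 2 under 5 of 11 alternatives and 1 in 5 of 8 omissions of a lung, those of LPS replicates 3 and 4 and of LPS + Tan replicates 1, 2 and 4. The count of higher genes was 1 without LPS replicate 4 or LPS + Tan replicate 2 or 4. Irf4, a transcription factor of dendritic cells, was lower without overlap, with a log2 fold change of -0.32 (standard error 0.16), while Flt3, a growth factor receptor, had -0.63 (standard error 0.28) and Irf8 -0.45 (standard error 0.31), both with overlap. The 9 markers with positive values included the lectins Mgl2 with 0.46 (standard error 0.37) and Clec10a with 0.40 (standard error 0.29), and Zbtb46, a transcription factor of conventional dendritic cells, with 0.20 (standard error 0.13). Their sums were 537 to 586 CPM in the LPS group and 480 to 569 CPM in the LPS + Tan group, with Irf8 highest in FPKM, which other myeloid cells and B cells also express, and the defining markers Xcr1 and Cd209a had at most 7 and 14 counts in a lung.

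Lymphocyte markers, which mark cells that answer these chemokines, were described list by list. T cell markers, led by Thy1, had 7 of 15 tested genes negative and a median of 0.06, and Icos, a co-stimulatory receptor, was the 1 gene past an unadjusted p of 0.05, with 1.19 to 1.73 CPM in the LPS group, 1.63 to 3.79 CPM in the LPS + Tan group and a log2 fold change of 0.70 (standard error 0.29, edgeR adjusted p = 0.924). At that threshold 2.87% of all tested genes were higher. The count of higher T cell markers was 0 without LPS replicate 1 or 4 or LPS + Tan replicate 1 or 2, 2 without LPS replicate 3 or LPS + Tan replicate 4, and 3 with limma on FPKM of the tested genes. Regulatory and type 2 T cell markers, led by Tnfrsf18, had 4 of 9 negative and a median of 0.01. Type 17 lymphocyte markers had 9 of 10 negative and a median of -0.25, with Il17a the 1 gene past an unadjusted p of 0.05 (2.25% of all tested genes were lower). This count was 0 without LPS replicate 1 or 4 or LPS + Tan replicate 1, 2 or 3 and 2 without LPS replicate 3, and it was 0 or 2 under 4 of the 11 alternatives. Their sum of 1172 to 1373 CPM in LPS and 1050 to 1343 CPM in LPS + Tan was mostly Tmem176a and Tmem176b, which macrophages also express. B cell markers, led by Cd79b, had 10 of 12 negative and a median of -0.11, with 0 past an unadjusted p of 0.05.

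Epithelial and myeloid markers stand for further cells that can make Ccl20 or Ccl22. Airway epithelial markers had 8 of 12 tested genes negative and a median of -0.17, with Bpifa1, a secreted airway protein, at a log2 fold change of 1.48 (standard error 0.67) and Tff2, a trefoil peptide, at -0.87 (standard error 0.60). Alveolar epithelial markers, led by Sftpc, had 8 of 12 negative and a median of -0.05. Alveolar macrophage markers, led by Chil3, had 7 of 12 negative and a median of -0.04, and neutrophil markers, led by S100a9, had 4 of 12 negative and a median of 0.04. None of these 4 lists had a gene past an unadjusted p of 0.05 in the edgeR fit of all 8 lungs. For the airway list this depended on the setting, with 1 higher gene under 3 alternatives and without LPS replicate 1 or LPS + Tan replicate 1, 3 or 4, and with 1 or 2 lower genes without LPS replicate 3 or LPS + Tan replicate 2, 3 or 4. Without LPS + Tan replicate 2 the alveolar epithelial list had 1 lower gene, and without LPS replicate 3 the neutrophil list had 1. Of the monocyte and interstitial macrophage markers, led by Ly6c2, 2 of 12 were negative and the median was 0.16, with the chemokine receptor Cx3cr1 at a log2 fold change of 0.84 (standard error 0.44), and the complement gene C1qa was past an unadjusted p of 0.05, with a log2 fold change of 0.28 (standard error 0.10, edgeR adjusted p = 0.924). Here 2.87% of all tested genes were higher, and the count of 1 marker was 3 without LPS replicate 1, 2 without LPS + Tan replicate 2, 5 without LPS + Tan replicate 4, and 2 with DESeq2 or the replicate block. Lymphatic endothelial markers, led by Lyve1, had 9 of 10 negative and a median of -0.13, and the 4 haemoglobin genes, led by Hbb-bs, had a median of -0.55, both without a gene past an unadjusted p of 0.05 in the fit of all 8 lungs. The lymphatic list had 1 lower gene under 5 of 11 alternatives and without LPS replicate 2 or LPS + Tan replicate 2 or 4, and 1 higher gene without LPS + Tan replicate 4. The haemoglobin list had 1 or 2 lower genes under 3 alternatives, 3 without LPS replicate 2 and 1 without LPS + Tan replicate 2 or 4.

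To find genes that varied between mice as the members did, log2 CPM was centred on the group means and correlated over the 8 lungs with 13735 other tested genes of at least 1 CPM. The most similar genes were Mrps22, Iqub and Ap5z1 for Ccl20, with Pearson correlations of 0.975, 0.967 and 0.949. For Ccl22 they were Trnau1ap, Pdss2 and Rsl24d1, with 0.983, 0.956 and 0.953. For Ccl17 they were Thoc6, Stau2 and Idh3b, with 0.979, 0.972 and 0.962. For Ccr6 they were Gm34934, C4b and Zscan2, with 0.974, 0.973 and 0.969. For Ccl19 they were Card10, Zscan29 and Sin3a, with 0.987, 0.985 and 0.983, and for Ccr7 Ptges2, LOC115489488 and Snhg5, with 0.981, 0.980 and 0.978. No member was among the 3 most similar genes of another. Between members, in libraries shared by both, the correlations largest in size were 0.839 for Ccl22 with Ccl17 and -0.781 for Ccl17 with Ccl19. Next in size came -0.574 for Ccl22 with Ccl19, 0.560 for Ccl19 with Ccr7 and 0.537 for Ccl20 with Ccr6. The correlations with other genes were picked as the highest of 13735 over 8 lungs. Those between members were picked as the largest of their pairs, and all are a description only. The lists depended on centring, since without it Mrps22 ranked 3196 for Ccl20 and Trnau1ap 258 for Ccl22, while Thoc6 ranked 1 for Ccl17.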

How the data were processed

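Lung RNA of 4 LPS and 4 LPS + Tan mice was sequenced. The methods name TRIzol and the VAHTS Universal library kit, whereas the labels name a column kit and another library kit. The authors deposited raw read counts per gene, made on the builds GRCm38 and mm10 per the labels, and FPKM values, which are those counts per gene length and per total count. Aligner, annotation and counter were not given in the sources used here. Groups and replicate numbers come from the labels, and 0 columns were left without a sample. The labels do not tie replicate numbers across groups, so samples were treated as unpaired.

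The test on counts was that of edgeR 4.0.16, run in R 4.3.3 (filterByExpr, TMM scaling, quasi-likelihood test, no covariate), which kept 15706 of 24584 genes, with Benjamini-Hochberg adjustment over all of them. The standard error was the log2 fold change divided by the square root of F. The alternatives were DESeq2 1.42.0, edgeR's likelihood ratio test, limma 3.58.1 (voom, and on log2 of FPKM plus 1 or 0.1), 2 scalings, 2 filters, a replicate block and each sample left out. The scripts were tested on simulated data. The members and the 19 gene lists (245 of 251 entries were in the tables) were chosen with earlier results of these data known. Genes named are the members, genes of the lists past an unadjusted p of 0.05, the gene of each cell type list with the highest FPKM, 4 partners (Ccl21a, Ackr2, Ackr4, Ccr8) and the 3 genes most like each member. Cd274, Il4, Il13, Il4i1, Il12b, Xcr1, Cd209a, Tmem176b, Cxcl13, Il22, Il17f, Il1b, Tnf, Rela, Relb, Cd83, Traf1, Cacnb3, Irf4, Flt3, Bpifa1, Tff2, Cx3cr1, Mgl2, Clec10a, Zbtb46, Cd40 and Ltb were named after their values were seen. Trac, Ighd and Ighm were named because they had no values. No 2 samples of a group were one library, since their counts differed by 8.61 to 28.2 times the sampling noise. RefSeq names of GRCm38.p6 matched 23807 genes, and all 7 members, 6 of which had a promoter sequence.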

Additional observations from a re-analysis of the deposited data

Results flagged for a closer look

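In 52 groups of 4 lungs (the log2 CPM of each member and the summed CPM of each gene list, in each treatment group), 2 held a lung far from the others, where chance gives about 2.6. The gap from that lung to its nearest neighbour is given relative to the whole range of its group. The summed inducers of Ccl20 were highest in LPS replicate 3, at 1765 CPM against 1433 CPM in the next lung, a relative gap of 0.876. The summed B cell markers were lowest in LPS + Tan replicate 4, at 28.7 CPM against 40.2 CPM in the next lung, a relative gap of 0.856. No member of the chemokine group had such a lung.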

How the results depend on the processing

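Ccl20 and Ccl22 kept a negative log2 fold change under all 11 alternatives and all 8 omissions of a lung. They passed an adjusted p of 0.05 under 2 alternatives only. Ccl20 had -1.42 by DESeq2 (adjusted p = 0.00239) and -1.42 by edgeR's likelihood ratio test (adjusted p = 0.0111). Ccl22 had -0.97 by DESeq2 (adjusted p = 0.0270) and -0.97 by edgeR's likelihood ratio test (adjusted p = 0.0498). Both genes were chosen with this comparison known, so these calls are a description and not separate evidence. Ccr6 ranged from -0.25 to 0.045 when single lungs were left out and changed sign in 3 of the 8 omissions. Ccl17, Ccl19 and Ccr7 kept their sign and stayed short of an adjusted p of 0.05. Ccr7 was past an unadjusted p of 0.05 without LPS + Tan replicate 2, where 820 genes were higher and 806 lower at that threshold. In the fit of all 8 lungs 451 genes were higher and 353 lower. The numbers of genes called moved more, and apart from smaller sample sets and filters the cause was not tested. Genes past an adjusted p of 0.05 numbered 35 with DESeq2, 23 with the likelihood ratio test, 2 with limma on log2(FPKM + 1) of all genes and 0 to 1 when lungs were left out. At the thresholds of the study, 113 genes were higher and 111 lower with DESeq2 on all genes, and without any filter 220 and 198. Requiring 1 CPM or more in 4 lungs gave 18 higher and 23 lower genes. Limma on FPKM gave 5 higher and 9 lower with a pseudocount of 1, 19 higher and 21 lower with one of 0.1, and 5 higher and 6 lower with a pseudocount of 1 on every gene. Leaving out lungs gave 37 to 113 higher and 38 to 125 lower genes, with 84 and 71 without LPS replicate 1, 88 higher without LPS replicate 4, 113 and 125 without LPS + Tan replicate 2 and 102 lower without LPS + Tan replicate 4.

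With the replicate number as a block, 0 genes passed an adjusted p of 0.05, 43 were higher and 55 lower at the thresholds of the study, and the log2 fold changes were -1.34 for Ccl20 and -0.98 for Ccl22, and no call on a member changed. For Ccr7 the block gave -0.24 (standard error 0.16), against -0.16 (standard error 0.28) without it. Same-numbered lungs correlated between -0.14 and 0.11 in their deviations from the group means, above 0.1 in 1 of 4 pairs. The labels do not tie the numbers across groups, and 4 pairs cannot exclude a shared batch of same-numbered lungs. Of 722 counts of list genes under the alternatives, 620 stayed within 1.5 times the main count, and 89 of the 102 that moved did so by 1 gene. The B cell, regulatory T cell, lymphoid tissue, lung identity and further receptor lists, with 0 genes past an unadjusted p of 0.05 in all 8 lungs, had at most 1 in each direction when a lung was left out and 0 under the other alternatives. Depth limited Ccr4, Ccr8, Il4 and Il13 throughout and Il17a, Ackr4, Ccl19 and Ccr6 in part.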

Other observations

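In FPKM Ccr7 lay above the measured markers of the T cell and B cell lists and within the range of the mature dendritic cell markers. The listed lymphocyte markers Trac, Ighd and Ighm had no values here, so they could not be compared. Thy1 is also in the lymphatic endothelial list. Its mean was 15 FPKM in the LPS group and 13.7 FPKM in the LPS + Tan group, whereas Thy1, the T cell marker with the highest mean, had 6.62 FPKM and Cd79b, the B cell marker with the highest mean, 7.42 FPKM over all 8 lungs. Of 18 mature dendritic cell markers 10 had a lower mean than Ccr7, such as Relb with 8.69 FPKM and Cd83 with 4.33 FPKM, while Fscn1 and Cd40 had 34.5 and 20.5 FPKM, and the lymphoid tissue gene Ltb had 24.5 FPKM. The cells that carry it were not identified here.

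The distance between ligand and receptor levels differed among the axes. Ccl22 exceeded Ccr4 by 241 to 3884 times in FPKM over the 8 lungs, and Ccl20 exceeded Ccr6 by 8.16 to 32.4 times, whereas Ccr7 exceeded its ligand Ccl19 by 1.86 to 5.29 times. Ccl21a, the other CCR7 ligand, lay above Ccr7, with a median of 41.6 FPKM against 12.9 FPKM. The Ccr4 ratios rest on 1 to 10 counts of Ccr4 per lung.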
